A study of Mus musculus with 2 samples.

Results

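The heat shock protein 90 machine was described here through 9 genes: Hsp90aa1 and Hsp90ab1, which encode the 2 forms of cytosolic HSP90, and the co-chaperone genes Stip1, Cdc37, Ahsa1, Ahsa2, Fkbp4, Ptges3 and Chordc1. They were taken by symbol from the 55450 gene rows of the deposited tables, and each symbol matched 1 row. The genes had been picked with results of these data known, so their levels and ratios are given as a description with no test.

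HSP90 is an abundant chaperone that binds near-native proteins, among them kinases and steroid receptors, and closes around them as it hydrolyses ATP. Hsp90ab1 is the constitutive gene of the cytosolic pair and Hsp90aa1 the stress-inducible gene, which heat shock factor 1 switches on together with several co-chaperone genes. STIP1 hands clients over from HSP70, CDC37 brings in kinases, AHA1-type activators speed up ATP hydrolysis, and FKBP4 and the p23 protein encoded by Ptges3 act late in the cycle. In the aorta, HSP90 also holds endothelial nitric oxide synthase and the receptors for glucocorticoids.

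Single-cell RNA-seq libraries came from the aortic tissue of Apoe-/- mice aged 12 weeks, which lack apolipoprotein E, in which angiotensin II (Ang II), a hormone that raises blood pressure, had been used to produce an abdominal aortic aneurysm. Genotype, age, Ang II and aneurysm were shared by both groups; 1 group received DMSO, a solvent, and the other an inhibitor. Titles show only initials, matched to these 2 treatments through the wording of the series design. Name, dose and timing of the inhibitor were not available to this description, nor was the number of animals per library. The tissue had been cut into segments, and the segment of a cell is not recorded.

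Each group held 1 library, so no test was possible, group and library cannot be told apart, and every interval below is a 95% interval of counting error alone. The DMSO library had 9125 barcodes and 101139161 unique molecular identifiers (UMIs, each 1 captured transcript), of which 8411 cells with a median of 7935 UMIs were kept. The inhibitor library had 8149 barcodes and 79648307 UMIs, and 7417 cells with a median of 8991 UMIs were kept; 16 barcodes occurred in both libraries. Cells were clustered and named from marker genes, and a comparison was made in the 10 classes that reached 50 cells on both sides, from 2060 DMSO and 1910 inhibitor fibroblast-like cells down to 241 and 52 neutrophil-like cells. Own markers were present in every compared class, although their level could differ between the libraries: all listed markers reached 20 counts per 1000000 UMIs (CPM) in both libraries, apart from 1 of 6 dendritic markers in the inhibitor library. Markers of related classes were present too. In dendritic-like cells 8 of 8 macrophage markers reached 20 CPM in both libraries. They summed to 1850 CPM in DMSO and 2012 CPM in inhibitor, above the dendritic sums of 1123 and 1464 CPM. T cell-like cells held 4 of 4 NK cell markers (734 and 678 CPM). Neutrophil-like cells held 8 and 7 of 8 macrophage markers (1836 and 972 CPM). The classes differed in number between the libraries, with 769 DMSO against 3121 inhibitor smooth muscle-like cells and 863 against 84 adipocyte-like cells. Levels are given as CPM from UMIs summed over the cells of a class, and the ratio is inhibitor over DMSO. The chemistry tags the 3' end of each transcript, so levels of different genes were compared without division by length.

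Smooth muscle-like cells were named from smooth muscle markers such as Myh11 and Acta2, and the class was mixed. Cluster 17, with Igfbp2, Ltbp2, Eln and Acan among its leading genes, held 43.7% of its DMSO and 6.95% of its inhibitor cells. Ratios within its clusters are given further below. In the class as a whole both cytosolic HSP90 genes and 6 of 7 co-chaperone genes were higher in the inhibitor library. Hsp90aa1 stood at 749 CPM in the DMSO library and 3158 CPM in the inhibitor library, a ratio of 4.22 (4.13 to 4.31), the 16th highest of 6235 genes tested in the class. Hsp90ab1 stood at 1924 and 4315 CPM, a ratio of 2.24 (2.21 to 2.27). The inducible gene therefore differed by more than the constitutive gene, and their counting intervals were far apart. The summed level of the pair went from 2672 to 7473 CPM. The words higher and lower are used for a difference of 1.5-fold or more in a gene that reached 20 CPM in 1 library. On that rule 8 of 9 genes were higher and 0 lower, against 3.58% higher and 8.16% lower of all genes tested in this class. The median log2 ratio was 1.30 over the 9 genes and -0.04 over all genes tested, computed after adding 5 CPM. Nothing is read from these shares, since the genes were picked with this contrast known.

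Other features of the smooth muscle-like class moved with this difference, and their part in it was not tested. The median depth was 14504 UMIs per cell in the DMSO library and 11226 in the inhibitor library, and the median mitochondrial share was 5.57% and 4.85%. The fibroblast markers summed to 10116 CPM in DMSO, with 8 of 8 at 20 CPM or more, and to 4130 CPM in inhibitor, with 5 of 8. The pericyte markers summed to 3083 and 3944 CPM, with 3 of 4 present in both. Erythroid markers summed to 2.80 and 82.2 CPM, and the macrophage list, at 160 and 62.3 CPM, was the highest of the others.

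On GRCm38, Hsp90aa1 (ENSMUSG00000021270) lies on chromosome 12 from 110690605 to 110702728 on the minus strand. In the DMSO library its level ran from 493 CPM in fibroblast-like cells to 1115 CPM in T cell-like cells, with a median of 630 CPM over the 10 classes. T cell-like cells stood apart above all others there, and dendritic-like (770 CPM), adipocyte-like (770 CPM) and smooth muscle-like cells (749 CPM) came next, with intervals that overlap from each to the next. In the inhibitor library smooth muscle-like cells stood far above the rest and adipocyte-like cells came next at 1545 CPM. Dendritic-like (1126 CPM) and endothelial-like cells (1113 CPM) had overlapping intervals, and neutrophil-like cells were lowest at 623 CPM. The highest class thus exceeded the lowest by 2.26-fold in DMSO and by 5.07-fold in inhibitor.

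Hsp90aa1 was higher in the inhibitor library in 6 of 10 classes. In adipocyte-like cells, the fat-storing cells around the vessel, it went from 770 to 1545 CPM (ratio 2.01; 1.92 to 2.10). Endothelial-like cells, the inner lining of blood vessels, went from 558 to 1113 CPM (1.99; 1.90 to 2.09), and lymphatic endothelial-like cells from 530 to 935 CPM (1.76; 1.60 to 1.95). Fibroblast-like cells, which make connective tissue matrix, went from 493 to 809 CPM (1.64; 1.61 to 1.68), and this ratio fell below 1.5 under 3 of 14 alternative settings, to 1.40 at the lowest. The macrophage-like ratio of 1.51 (1.45 to 1.56), from 630 to 949 CPM, lay at the limit, and under 9 of the 14 alternative settings it fell below 1.5, with 1.31 as the lowest value. Schwann-like cells, which wrap nerve fibres, had 547 and 816 CPM (1.49; 1.37 to 1.63), and dendritic-like cells 770 and 1126 CPM (1.46; 1.38 to 1.55), both just under the limit. T cell-like cells had 1115 CPM in DMSO and 858 CPM in inhibitor, the single class with an Hsp90aa1 interval wholly below 1 (ratio 0.770; 0.669 to 0.883). That direction turned with cells called doublets kept, where the ratio was 1.08. In T cell-like cells 3 markers of dividing cells summed to 354 CPM in DMSO, all 3 at 20 CPM or more, and to 86.5 CPM in inhibitor, with 2 of 3. Fibroblast markers there summed to 1727 and 654 CPM (7 and 6 of 8), while the T cell markers summed to 2560 and 2620 CPM (6 of 6 in both), and the part of these markers in the ratio was not tested. Neutrophil-like cells had 630 and 623 CPM from 296 and 66 UMIs (0.989; 0.746 to 1.30), and with doublets kept the ratio was 1.74.

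Hsp90ab1 (ENSMUSG00000023944; chromosome 17, 45567775 to 45573271, minus strand) was the most abundant of the 9 genes in both libraries of every class except neutrophil-like cells of the DMSO library. In DMSO it ran from 555 CPM in neutrophil-like to 2779 CPM in T cell-like cells, with a median of 1913 CPM. In inhibitor it ran from 1916 CPM, again in neutrophil-like cells, to 4315 CPM in smooth muscle-like cells. Endothelial-like (4214 CPM) and dendritic-like cells (4195 CPM) stood close below the smooth muscle-like level, with overlapping intervals between them. The highest class exceeded the lowest by 5.01-fold in DMSO and 2.25-fold in inhibitor, the reverse of the order seen for Hsp90aa1.

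The ratio of Hsp90ab1 was above 1 in all 10 classes and at least 1.5 in 7. The highest was in neutrophil-like cells, from 555 to 1916 CPM (3.45; 2.86 to 4.16), a class with 261 and 203 UMIs of the gene. There it ranked 523 of 6855 genes tested, and 29.5% of all genes were higher. The smooth muscle-like ratio of 2.24 ranked 42 of 6235. In neutrophil-like cells the neutrophil markers summed to 29410 CPM in DMSO and 15839 CPM in inhibitor, with 5 of 5 at 20 CPM or more in both. Fibroblast markers there summed to 2557 and 4550 CPM (7 of 8 in both) and smooth muscle markers to 1123 and 2549 CPM (6 and 5 of 8). The part of these markers in the neutrophil-like ratios was not tested. Schwann-like cells went from 1700 to 2936 CPM (1.73; 1.65 to 1.81), dendritic-like cells from 2430 to 4195 CPM (1.73; 1.67 to 1.78) and macrophage-like cells from 1726 to 2931 CPM (1.70; 1.66 to 1.73). Lymphatic endothelial-like cells went from 2399 to 3990 CPM (1.66; 1.59 to 1.74) and endothelial-like cells from 2650 to 4214 CPM (1.59; 1.56 to 1.63). Both of these fell below 1.5 in some settings, the first under 2, to 1.47 at the lowest, and the second under 1, to 1.32 at Leiden resolution 0.5. Fibroblast-like cells (1674 and 2369 CPM; 1.41), adipocyte-like cells (1902 and 2685 CPM; 1.41) and T cell-like cells (2779 and 3575 CPM; 1.29) stayed under the limit.

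**Figure D1:**
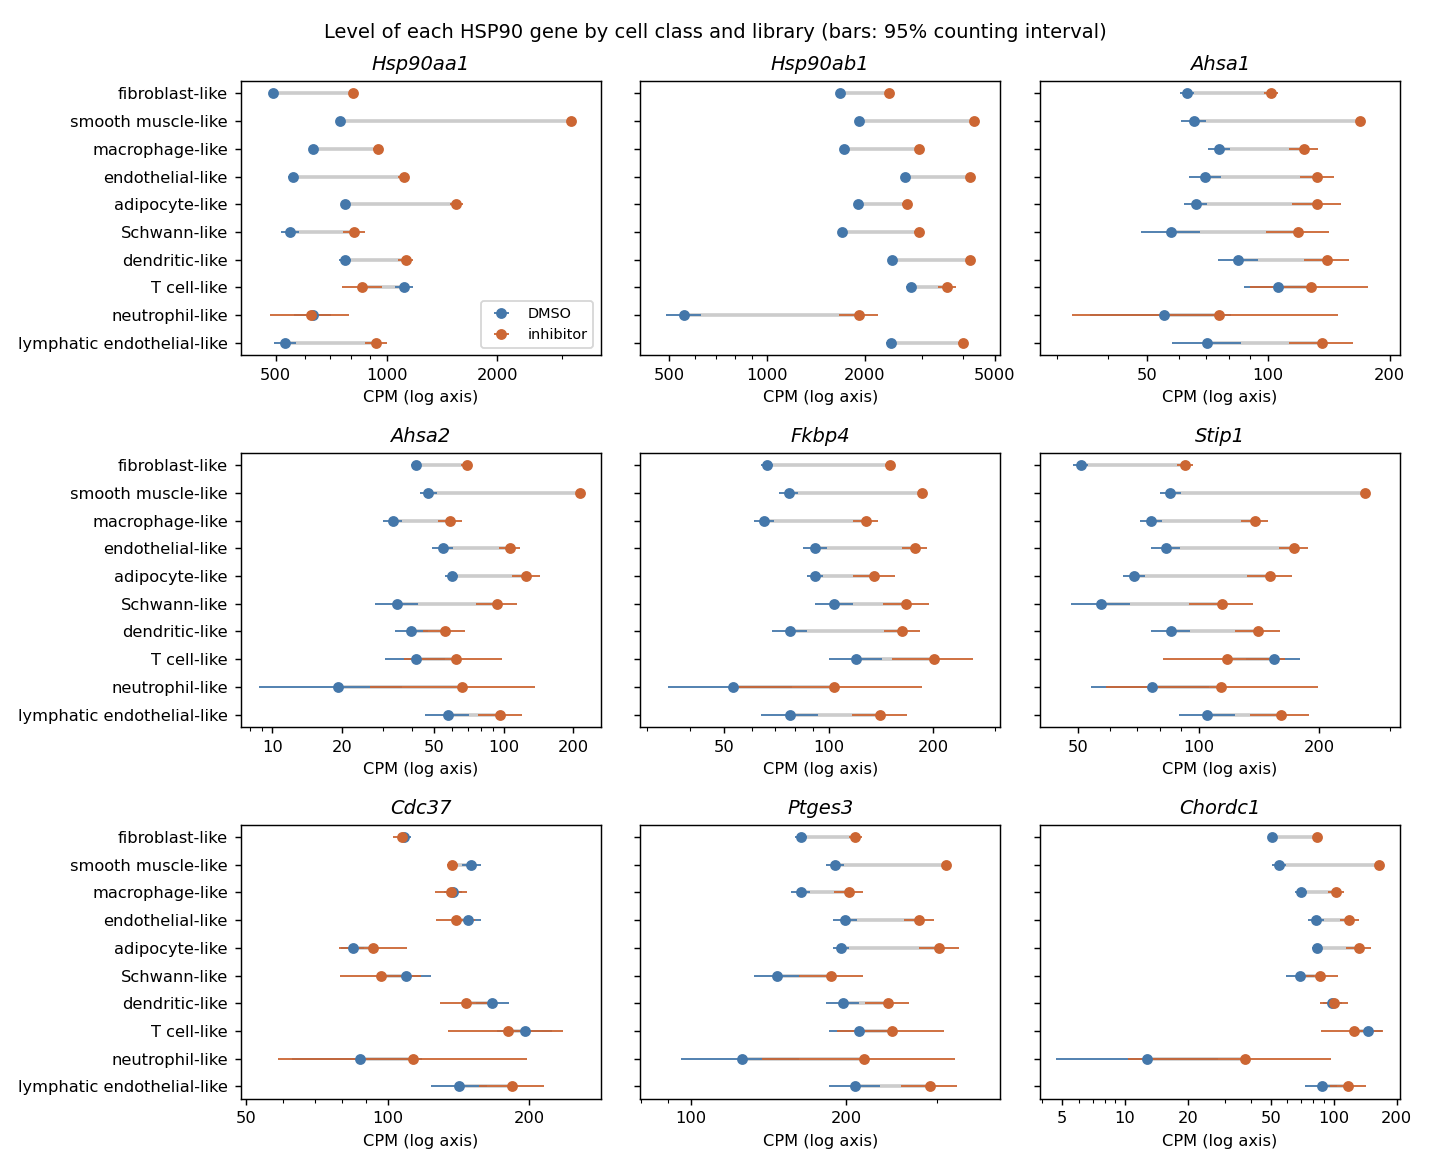
CPM (log axis) of each of the 9 genes in 10 cell classes, with DMSO in blue and inhibitor in orange and bars for the 95% counting interval. The Hsp90aa1 point of smooth muscle-like cells lies at 3158 CPM in the inhibitor library, above every other class, while the Cdc37 points of the 2 libraries lie close together.

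The balance between the genes of the pair needs no scaling by library, because it is a share of Hsp90aa1 among the UMIs of Hsp90aa1 and Hsp90ab1. In smooth muscle-like cells Hsp90aa1 made up 28.0% of these UMIs in DMSO (27.5 to 28.5%, exact Clopper-Pearson) and 42.3% in inhibitor (42.1 to 42.4%), a difference of 14.2 points. Adipocyte-like cells went from 28.8% to 36.5%, endothelial-like cells from 17.4% to 20.9% and fibroblast-like cells from 22.7% to 25.5%. In fibroblast-like clusters 4 and 20, which together hold most inhibitor cells of that class, the intervals overlapped, with differences of -0.90 and 0.67 points. Endothelial-like cluster 22, with 47.9% of DMSO and 36.2% of inhibitor cells of its class, had 19.6% and 19.4% with overlapping intervals. In endothelial-like clusters 0 (16.9% and 21.5%) and 7 (15.6% and 21.8%) the share was higher in inhibitor. In 5 classes the share was lower in the inhibitor library. It was 26.8% against 24.5% in macrophage-like, 24.3% against 21.7% in Schwann-like, 24.1% against 21.2% in dendritic-like, 28.6% against 19.4% in T cell-like and 53.1% against 24.5% in neutrophil-like cells. Within each of the 2 Schwann-like clusters the intervals overlapped, as did those of lymphatic endothelial-like cells, at 18.1% and 19.0%. The differences between classes were not tested.

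**Figure D2:**
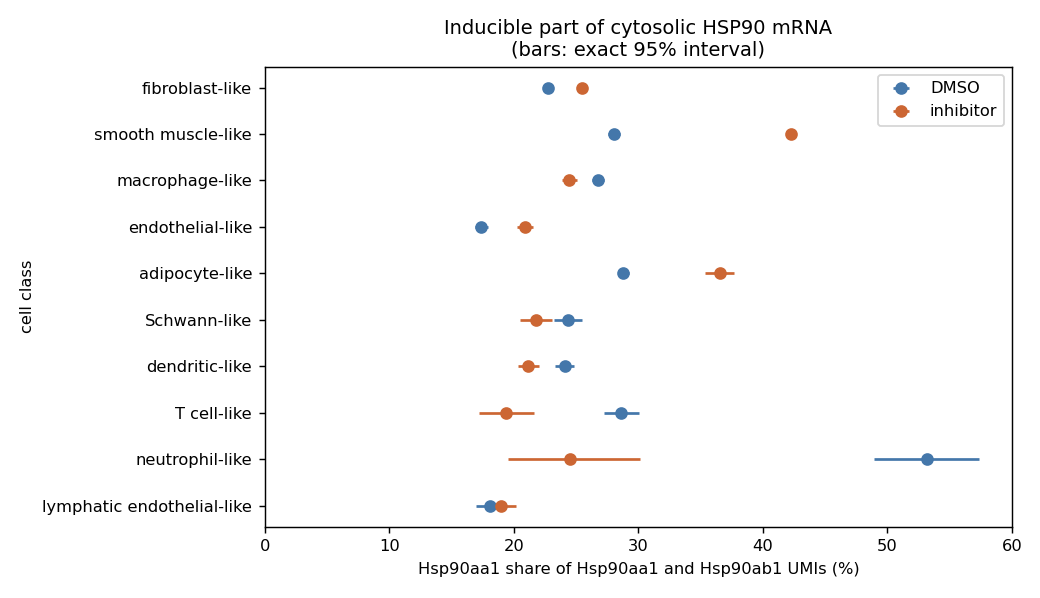
Share of Hsp90aa1 in the summed UMIs of Hsp90aa1 and Hsp90ab1 (percent, from 0) in 10 cell classes, DMSO in blue and inhibitor in orange, with exact 95% intervals. The share was higher in inhibitor in 4 classes, most in smooth muscle-like cells (28.0% to 42.3%), and lower in 5.

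Stip1 and Cdc37 encode the co-chaperones that deliver clients, and they parted company. Stip1 (ENSMUSG00000024966; chromosome 19, 7020702 to 7039967, minus strand), the adaptor between HSP70 and HSP90, went from 84.9 to 259 CPM in smooth muscle-like cells (ratio 3.05; 2.86 to 3.26). It was at least 1.5-fold higher in 8 of 10 classes, among them adipocyte-like cells from 68.8 to 150 CPM (2.18), endothelial-like cells from 82.6 to 173 CPM (2.09) and fibroblast-like cells from 50.7 to 92.3 CPM (1.82). The exceptions were T cell-like cells, with 154 and 118 CPM (0.765; 0.513 to 1.11), and neutrophil-like cells, with 76.6 and 113 CPM (1.48; 0.701 to 2.91), and both of their intervals hold 1. After thinning, the T cell-like ratio of Stip1 was 1.13.

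Cdc37 (ENSMUSG00000019471; chromosome 9, 21133222 to 21149982, minus strand), the adaptor for protein kinases, was neither higher nor lower by 1.5-fold in any of the 10 classes. Smooth muscle-like cells had 151 CPM in DMSO and 137 CPM in inhibitor (0.911; 0.864 to 0.961), rank 3848 of 6235 genes. Fibroblast-like cells had 109 and 107 CPM (0.986; 0.937 to 1.04) and macrophage-like cells 138 and 136 CPM (0.989; 0.903 to 1.08). The largest ratios were 1.30 in neutrophil-like and 1.29 in lymphatic endothelial-like cells (142 and 184 CPM; 1.05 to 1.60), and the smallest 0.881 in dendritic-like cells (167 and 147 CPM; 0.757 to 1.02). It passed 1.5 only in alternative settings, after thinning to 2000 UMIs in lymphatic endothelial-like (1.76) and adipocyte-like cells (1.51) and with each cell weighted alike in neutrophil-like cells (1.65). In the DMSO library Cdc37 was, at a median of 140 CPM, more abundant than Stip1, whose median was 79.6 CPM. In smooth muscle-like cells of the inhibitor library Stip1 was the more abundant, at 259 against 137 CPM. The same held there in endothelial-like (173 against 140 CPM) and adipocyte-like cells (150 against 93.3 CPM). Schwann-like (114 against 97.0 CPM) and macrophage-like cells (138 against 136 CPM) had this order with overlapping intervals. Cdc37 remained the more abundant in fibroblast-like cells. In dendritic-like, T cell-like and lymphatic endothelial-like cells Cdc37 also lay above Stip1, with overlapping intervals, and neutrophil-like cells had equal levels.

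Ahsa1 and Ahsa2 encode HSP90 ATPase activators. Ahsa2 (ENSMUSG00000020288; chromosome 11, 23487882 to 23498030, minus strand) had the largest ratio of the 9 genes in smooth muscle-like cells, from 47.3 to 214 CPM (4.52; 4.15 to 4.93), rank 14 of 6235. The next ratio, in neutrophil-like cells, went from 19.1 to 66.1 CPM and rests on 9 and 7 UMIs (3.45; 1.09 to 10.4). It was followed by Schwann-like cells, from 34.7 to 93.2 CPM (2.69; 1.99 to 3.63), and adipocyte-like cells, from 59.6 to 125 CPM (2.10; 1.79 to 2.46). Ahsa2 shares 2679 bases with Usp34 on the other strand, and no source at hand says how the counting treated strand. Ahsa1 (ENSMUSG00000021037; chromosome 12, 87266479 to 87273998, plus strand) went from 65.4 to 169 CPM in smooth muscle-like cells (2.58; 2.40 to 2.78), from 57.4 to 119 CPM in Schwann-like cells (2.07; 1.62 to 2.65) and from 66.1 to 132 CPM in adipocyte-like cells (interval of the ratio 1.71 to 2.33). Both genes were at least 1.5-fold higher in 8 of 10 classes. In DMSO smooth muscle-like cells Ahsa1 stood above Ahsa2, and in inhibitor below it.

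Fkbp4 and Ptges3 act at the late, client-bound stage. Fkbp4 (ENSMUSG00000030357; chromosome 6, 128429735 to 128438677, minus strand), an immunophilin of steroid receptor complexes, was higher in 9 of 10 classes, the most of any gene described here, with little spread between them. Its ratio was 2.41 in smooth muscle-like cells (76.8 to 185 CPM; 2.25 to 2.58), 2.26 in fibroblast-like cells (66.3 to 150 CPM; 2.14 to 2.38), 2.10 in dendritic-like cells (77.4 to 163 CPM; 1.77 to 2.49) and 1.96 in macrophage-like cells (65.3 to 128 CPM; 1.76 to 2.17). The lowest was 1.49 in adipocyte-like cells (91.2 to 135 CPM; 1.28 to 1.72). It was also the single gene of the set at least 1.5-fold higher in T cell-like cells, from 120 to 201 CPM (1.67; 1.21 to 2.29). Of all genes tested in that class, 14.2% were higher. The neutrophil-like ratio of Fkbp4, 1.95, rests on 25 and 11 UMIs, and its interval of 0.867 to 4.11 holds 1. In lymphatic endothelial-like cells the Fkbp4 ratio of 1.81 fell to 1.26 after thinning to 2000 UMIs. Ptges3 (ENSMUSG00000071072; chromosome 10, 128058954 to 128077272, plus strand), encoding p23, was the most abundant co-chaperone gene in the DMSO library, at a median of 193 CPM. Its ratios were small, with 1.64 in smooth muscle-like cells (190 to 313 CPM; 1.57 to 1.72), 1.55 in adipocyte-like cells, 1.28 in fibroblast-like cells and 1.24 in macrophage-like cells. They were above 1 in all 10 classes and at least 1.5 in 3, of which the adipocyte-like one was 1.46 with a mitochondrial share of at most 10%.

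Chordc1 (ENSMUSG00000001774; chromosome 9, 18292125 to 18317442, plus strand) encodes an HSP90-binding protein with CHORD domains. In smooth muscle-like cells it went from 55.0 to 166 CPM (3.01; 2.78 to 3.27), in fibroblast-like cells from 50.8 to 83.3 CPM (1.64; 1.54 to 1.75) and in adipocyte-like cells from 83.1 to 132 CPM (1.59; 1.37 to 1.85). The adipocyte-like ratio fell below 1.5 under 2 settings, to 1.48 at the lowest. In dendritic-like cells it stood at 98.4 and 100.4 CPM (1.02; 0.845 to 1.23) and in T cell-like cells at 146 and 125 CPM (0.856; 0.579 to 1.23). The neutrophil-like ratio of 2.96 rests on 6 and 4 UMIs, and its interval of 0.614 to 12.5 holds 1.

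**Figure D3:**
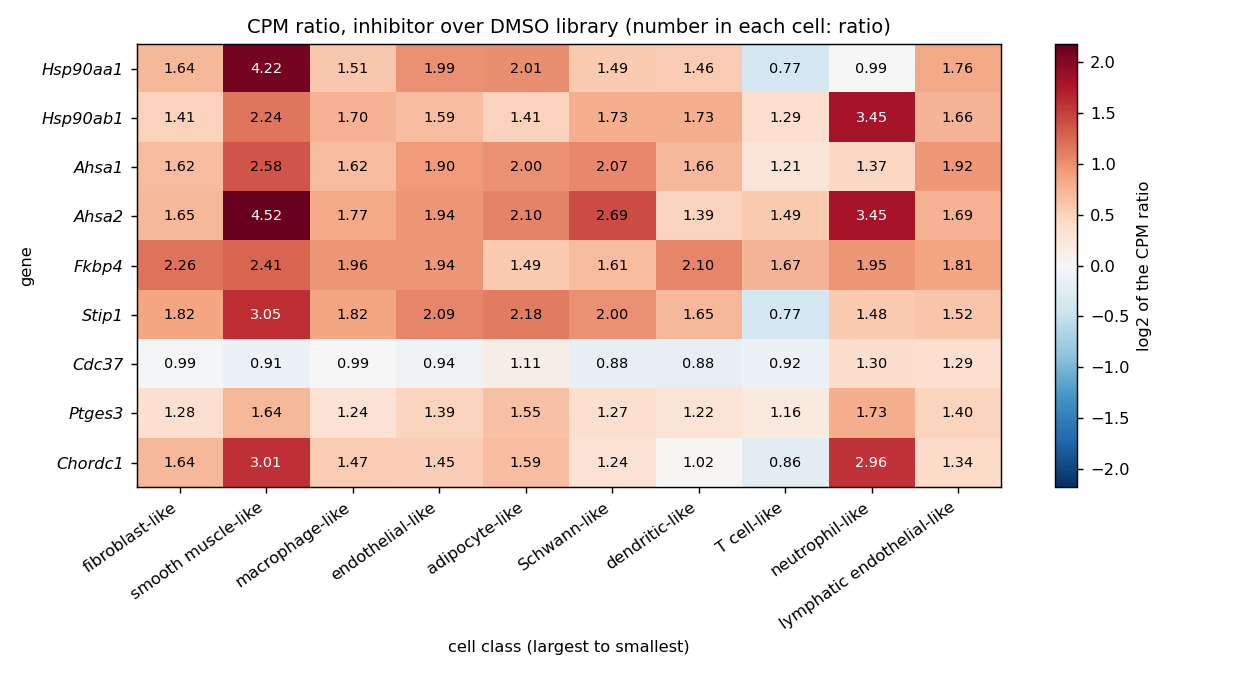
CPM ratio, inhibitor over DMSO, of each gene (rows) in each class (columns), coloured by its log2 on a scale centred at 0. Of the 9 genes, 6 have their highest ratio in the smooth muscle-like column, led by Ahsa2 (4.52) and Hsp90aa1 (4.22), while the Cdc37 row stays between 0.881 and 1.30.

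RefSeq windows from 250 bases before to 50 after the start (GRCm38.p6) were searched for the heat shock element. It is the binding motif of heat shock factors, built from inverted GAA units, and its part in the levels was not tested. Windows were held for 7 of the 9 genes; Hsp90aa1 and Hsp90ab1 were not among them. The motifs were GAANNTTC and TTCNNGAA, which read the same on both strands, and their overlaps. Sites were found in the windows of Fkbp4 and Chordc1, which were higher in smooth muscle-like cells, and of Cdc37, which was not. All sites found are shown with the motif in capitals. They lie at chr6:128438789-128438818 (minus strand), chr9:18292260-18292289 (plus strand), chr9:18292289-18292316 (plus strand) and chr9:21150086-21150115 (minus strand).
Fkbp4: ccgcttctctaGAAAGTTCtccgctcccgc
Chordc1, the first site: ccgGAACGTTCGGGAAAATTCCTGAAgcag
Chordc1, the second site: gtaccggcggcTTCCGGAAgctagctgc
Cdc37: tcggcgggaacTTCCAGAAggcctcaccac
The Fkbp4 motif spans positions -151 to -144 from the start and the Cdc37 motif -170 to -163. In Chordc1 a run of overlapping motifs spans -4 to 19, across the start, and a further motif lies at 34 to 41. The windows of Stip1, Ahsa1, Ahsa2 and Ptges3 held neither motif, and these genes were also higher in smooth muscle-like cells. RefSeq starts can differ from the gene positions given above. The Ahsa1 window (87266478 to 87266777) lies almost wholly within the gene, so the bases before its given start were hardly searched. The Stip1 window (7039977 to 7040276) lies wholly outside the given gene, before its start. Of 32851 windows of the same length, 15.1% held GAANNTTC or TTCNNGAA. A run of 3 alternating GAA and TTC units with 2 bases between neighbours, starting with either, occurred in 0.603%. A run of 4 such units starting with TTC occurred in 5 windows. In the first Chordc1 site it is part of a run of 5 units starting with GAA, whose frequency was not counted. A match is a run of letters and was not shown to be a bound site.

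Over all 9 genes and 10 classes, 53 of 90 pairs were at least 1.5-fold higher and 0 lower, against 8.62% higher and 11.3% lower of the 67132 gene and class pairs tested. Of the 90, 79 ratios were above 1. All 53 lay outside Cdc37, and 2 of them, both in neutrophil-like cells, have intervals that hold 1. By class, 6 of 9 genes were higher in fibroblast-like cells (all genes 5.09% higher and 7.72% lower), 6 in macrophage-like (3.39% and 4.19%), 6 in endothelial-like (4.49% and 8.72%), 6 in adipocyte-like (5.67% and 8.51%) and 6 in lymphatic endothelial-like cells (8.28% and 14.4%). Schwann-like cells had 5 (6.75% and 7.39%), dendritic-like cells 4 (3.40% and 10.2%), neutrophil-like cells 5 (29.5% and 23.5%) and T cell-like cells 1 (14.2% and 18.5%). Of the 9 genes, 0 were lower in any class. The median log2 ratio of the 9 genes was 0.21 in T cell-like cells and 0.66 in both fibroblast-like and macrophage-like cells. T cell-like and neutrophil-like cells were few in the inhibitor library (67 and 52), so ratios there rest on few UMIs.

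Smooth muscle transcripts were also counted in every other class. The smooth muscle myosin gene Myh11 stood in the other 9 classes at 1.31 to 6.49% of its smooth muscle-like level in DMSO and at 1.12 to 7.46% in inhibitor. Of 8 smooth muscle markers, 3 to 7 reached 20 CPM in these classes in DMSO and 4 to 8 in inhibitor, with sums from 358 to 2183 CPM and from 482 to 3019 CPM. With that part of the smooth muscle-like profile taken off each class, 2 of the 53 pairs fell below 1.5-fold, Hsp90aa1 in macrophage-like and Stip1 in lymphatic endothelial-like cells. This setting was added after the data had been seen. No class lacks HSP90, so a background of free HSP90 RNA could not be read from a negative class.

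Set against HSP90 itself, the co-chaperones did not keep pace alike. Per 100 UMIs of Hsp90aa1 and Hsp90ab1 in smooth muscle-like cells, Cdc37 went from 5.63 (5.38 to 5.90) in DMSO to 1.84 (1.79 to 1.89) in inhibitor and Ptges3 from 7.12 to 4.18. Ahsa2 went the other way, from 1.77 (1.63 to 1.92) to 2.86 (2.80 to 2.92). Stip1 (3.18 and 3.47), Fkbp4 (2.87 and 2.48), Ahsa1 (2.45 and 2.26) and Chordc1 (2.06 and 2.22) stayed close to their HSP90. In fibroblast-like cells Fkbp4 went from 3.06 to 4.72 per 100 HSP90 UMIs and Cdc37 from 5.01 to 3.37. In macrophage-like cells Cdc37 went from 5.84 to 3.51 and Ptges3 from 6.94 to 5.22.

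To compare single cells at equal depth, each cell was thinned to 2000 UMIs, which left out 28 of 769 DMSO and 84 of 3121 inhibitor smooth muscle-like cells. The share of these cells with an Hsp90aa1 UMI was 71.0% (67.6 to 74.2%) in DMSO and 94.9% (94.1 to 95.7%) in inhibitor; unthinned it was 95.7% and 98.6%. The median was 1 Hsp90aa1 UMI per cell in DMSO and 5 in inhibitor, and the upper quartile 2 and 9. In DMSO 0 of 741 thinned cells held 20 or more UMIs of the gene, and in inhibitor 3.95% did. Cells with no Hsp90aa1 UMI remained in the inhibitor library, at 5.10% against 29.0% in DMSO. For Hsp90ab1 the medians were 4 and 8 UMIs.

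Co-chaperone genes sit near the limit of detection at this depth. Among thinned smooth muscle-like cells the share with a UMI went from 6.34% to 32.4% for Ahsa2, from 13.0% to 39.2% for Stip1, from 9.72% to 28.1% for Chordc1, from 12.3% to 31.0% for Fkbp4, from 13.9% to 27.7% for Ahsa1 and from 30.9% to 45.9% for Ptges3. Cdc37 was at 27.3% (24.1 to 30.6%) and 23.8% (22.3 to 25.4%). In fibroblast-like cells the median of Hsp90ab1 was 3 UMIs in DMSO and 4 in inhibitor, and the share of cells with an Hsp90aa1 UMI was 58.1% and 68.4%. In macrophage-like cells the Hsp90aa1 share was 66.1% in DMSO and 77.5% in inhibitor.

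**Figure D4:**
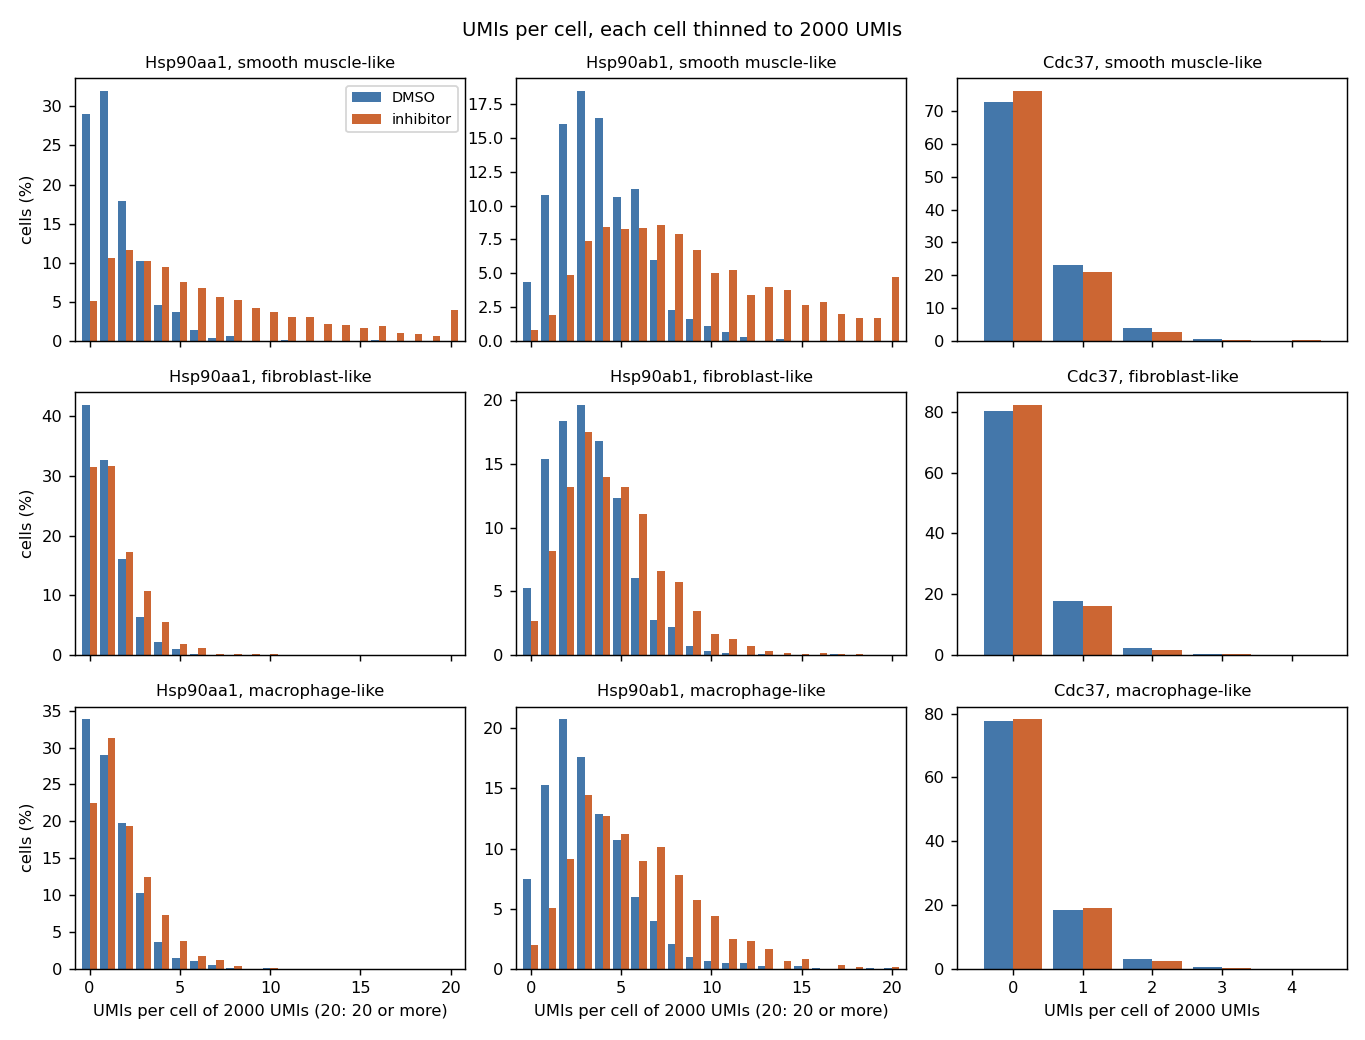
Percent of cells by UMIs per cell of Hsp90aa1, Hsp90ab1 and Cdc37, after thinning each cell to 2000 UMIs, in smooth muscle-like, fibroblast-like and macrophage-like cells (DMSO blue, inhibitor orange; the last bin of the HSP90 genes holds 20 or more). In smooth muscle-like cells the inhibitor bars of Hsp90aa1 reach across the whole axis, with a median of 5 against 1 UMI, while the Cdc37 bars lie close together.

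Hspa1a and Hspa1b encode inducible HSP70, and cells were divided by whether they held a UMI of either after thinning. In smooth muscle-like cells 54.3% of DMSO and 87.0% of inhibitor cells did. Among cells that did, Hsp90aa1 stood at 889 CPM in DMSO (402 cells) and 3617 CPM in inhibitor (2642 cells). Among cells without such a UMI it stood at 630 CPM (339 cells) and 1054 CPM (395 cells). Hsp90ab1 stood at 2041 and 4744 CPM with and at 1761 and 2239 CPM without. Cdc37 was at 169 and 136 CPM with and at 150 and 135 CPM without. These levels are a description only: the genes that divide the cells differed between the libraries themselves, no background of free HSP70 RNA was measured, and at this depth cells without a UMI can still express the genes.

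Classes are made of clusters in different proportions, so values were also read within clusters that held at least 50 cells in each library. Adipocyte-like cells had no such cluster, since their clusters 2, 5 and 28 held 47, 37 and 0 inhibitor cells. Cluster 28, with Ucp1 and Cidea among its leading genes, held 8.23% of the DMSO cells of that class. The part of this makeup in the adipocyte-like ratios was not tested. Clusters are numbered as in the plot of ratios by cluster. Among smooth muscle-like cells, cluster 17, led by Igfbp2, Ltbp2, Eln and Acan, held 43.7% of DMSO and 6.95% of inhibitor cells. Clusters 16 and 19, both with Mylk4, Sost and Itga8 among their leading genes, held 23.0% and 22.4% of DMSO and 38.1% and 40.3% of inhibitor cells, and cluster 23, led by P2rx1, Abra and Des, held 10.9% and 14.7%. The small heat shock gene Hspb1 was among the 10 leading genes of clusters 16 and 23. In cluster 17 Hsp90aa1 went from 666 to 1662 CPM (2.50; 2.40 to 2.60), in cluster 19 from 854 to 2887 CPM (3.38), in cluster 16 from 895 to 3845 CPM (4.29) and in cluster 23 from 764 to 3588 CPM (4.70; 4.40 to 5.02). The gene was higher in each of these 4 clusters. Ahsa2 ranged from 2.77 in cluster 17 to 4.96 in cluster 16, and Cdc37 lay between 0.846 and 0.978. The Hsp90aa1 share of HSP90 UMIs was also higher in each, from 26.2% to 35.9% in cluster 17 and from 28.4% to 42.9% in cluster 23.

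Over the 22 clusters with at least 50 cells in each library, Fkbp4 was higher in 21, Ahsa2 and Stip1 in 18, Ahsa1 in 16, Hsp90ab1 in 15, Hsp90aa1 in 14, Chordc1 in 11 and Ptges3 in 5. Cdc37 was higher in 0 and lower in 1, endothelial-like cluster 0, at 0.654. The share of all genes called within clusters was not computed, so nothing is read from these counts. Clusters 8 and 10 are the whole T cell-like and neutrophil-like classes, where 14.2% and 29.5% of all genes were higher. The median ratio over clusters was 1.80 for Hsp90aa1, 1.61 for Hsp90ab1 and 0.953 for Cdc37. Fibroblast-like cells also differed in makeup: clusters 1 and 6 held 36.6% and 27.5% of DMSO but 13.8% and 3.14% of inhibitor cells, and clusters 4 and 20 held 13.8% and 14.0% against 47.1% and 32.5%. The Hsp90aa1 share of HSP90 UMIs was higher in 10 clusters and lower in 6, and its intervals overlapped in 6. Among macrophage-like cells the share was lower in clusters 12, 18 and 26 and higher, by 4.17 points, in cluster 24, which like fibroblast-like cluster 11 has genes of cell division among its leading genes.

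**Figure D5:**
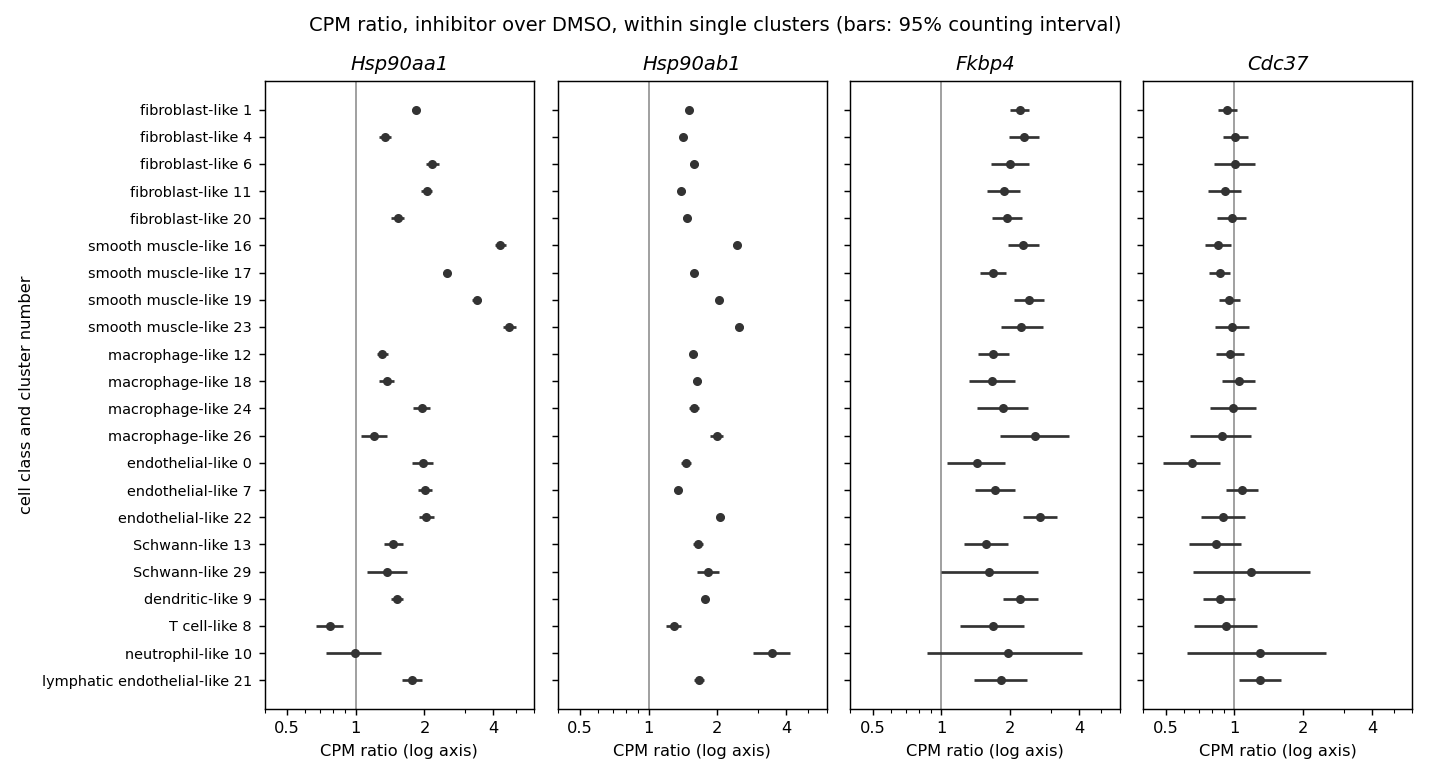
CPM ratio (log axis), inhibitor over DMSO, of Hsp90aa1, Hsp90ab1, Fkbp4 and Cdc37 within each of 22 clusters, with 95% counting intervals and a line at 1. The ratio of Fkbp4 is above 1 in every cluster (1.42 to 2.70), the smooth muscle-like clusters lead for Hsp90aa1 (2.50 to 4.70), and Cdc37 scatters around the line.

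Further genes of the HSP90 system were taken from a list of 31 paralogs and co-chaperones, of which 22 were tested in smooth muscle-like, 21 in fibroblast-like and 25 in macrophage-like cells. Of these, 2 were higher and 0 lower in smooth muscle-like cells (3.58% and 8.16% of all genes), 3 and 0 in fibroblast-like cells (5.09% and 7.72%) and 2 and 1 in macrophage-like cells (3.39% and 4.19%). The median log2 ratios were 0.02, 0.11 and 0.02. Cacybp, encoding calcyclin-binding protein, went from 104 to 366 CPM in smooth muscle-like (3.51), from 96.5 to 211 CPM in fibroblast-like (2.18) and from 123 to 190 CPM in macrophage-like cells (1.55). Ppid, encoding cyclophilin 40, had ratios of 1.64 in smooth muscle-like and 1.51 in fibroblast-like cells. Fkbp5, an immunophilin induced by glucocorticoids, went from 75.4 to 165 CPM in macrophage-like cells (2.19), where the folliculin gene Flcn was lower (44.3 to 25.4 CPM; 0.573). Hsp90b1, the HSP90 of the endoplasmic reticulum, did not follow the cytosolic pair across classes, with 685 and 725 CPM in smooth muscle-like cells (1.06; 1.03 to 1.08) but 1246 and 2100 CPM in fibroblast-like cells (1.69; 1.66 to 1.71). Trap1, the mitochondrial HSP90, had 28.1 and 29.1 CPM in smooth muscle-like cells (1.04).

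Of 18 client genes 13 were tested in smooth muscle-like cells, with 0 higher and 1 lower, the growth factor receptor gene Egfr (35.9 and 22.4 CPM; 0.623). In fibroblast-like cells 12 were tested with 0 higher and 1 lower, the hypoxia factor gene Hif1a (165 and 85.2 CPM; 0.515). In macrophage-like cells 0 of 10 passed either limit. Of all genes tested, 3.58% were higher and 8.16% lower in smooth muscle-like cells, and 5.09% and 7.72% in fibroblast-like cells. In macrophage-like cells these shares were 3.39% and 4.19%. Hsf1, the gene of heat shock factor 1, had 21.3 and 26.6 CPM in smooth muscle-like cells (1.25; 1.09 to 1.44) and was under 20 CPM in the 2 other large classes.

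The HSP70 arm that hands clients to HSP90 had 9 of 10 genes higher in smooth muscle-like cells, led by Hspa1b (196 to 1618 CPM; 8.25), Hspa1a (425 to 3103 CPM; 7.29), Hsph1 (215 to 1094 CPM; 5.10) and Dnajb1 (64.7 to 278 CPM; 4.30). In fibroblast-like cells 4 of 10 were higher, namely Hsph1 (2.63), Hspa4l (1.98), Hspa8 (1.76) and Hspa1b (1.69), with Hspa1a at 91.5 and 126 CPM (1.37). In macrophage-like cells 3 were higher, Hsph1 (2.01), Hspa4l (1.70) and Hspa8 (1531 to 2303 CPM), and Hspa1a was lower, at 356 and 184 CPM (0.518), while 6 of the 9 HSP90 genes were higher there. Of 12 immediate early genes, which respond to handling of tissue among other stimuli, 7 were lower and 1, Atf3, higher (101 to 204 CPM; 2.03) in smooth muscle-like cells, 8 were lower in fibroblast-like and 9 in macrophage-like cells. Fosb, for example, had ratios of 0.382, 0.425 and 0.449 in these classes. Socs3 (0.372), Junb (0.472) and Fos (0.510) were also among the lowest in smooth muscle-like cells. Beside these counts, 3.58% of all genes tested were higher and 8.16% lower in smooth muscle-like cells. The shares were 5.09% and 7.72% in fibroblast-like cells and 3.39% and 4.19% in macrophage-like cells. Both lists were chosen with earlier results of these data known, so nothing is read from the counts. The part of the listed genes in the HSP90 values was not tested.

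Likeness of pattern was measured as the Pearson correlation of log2(CPM + 5) over 20 points (10 classes in 2 libraries), among 7643 genes; points of a library share its cells' handling and depth, so the value is a description. The genes nearest to Hsp90aa1 were Hsph1 (0.87), Stip1 (0.85), Ahsa1 (0.82), Dnaja1 (0.81) and Cct7 (0.79). Those nearest to Hsp90ab1 were Cct4 (0.92), Chordc1 (0.90), Cct7 (0.88), Cct3 (0.86) and Cct6a (0.86); Cct genes encode subunits of the cytosolic chaperonin. Hsp90aa1 and Hsp90ab1 correlated at 0.58 with each other, and Cdc37 at 0.16 with the first and 0.55 with the second.

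Near-copies of some genes make their counts uncertain. In the last 500 bases of its transcripts, Hsp90aa1 shares 18.7% of its 90-base stretches with the pseudogenes Gm12346 and Gm5844, and Ahsa1 shares 16.8% with Gm49207; the other 7 genes share 0. Gm12346 was counted at 6.83 and 40.8 CPM in smooth muscle-like cells, where Hsp90aa1 had 749 and 3158 CPM. How reads from the shared stretches were assigned is not known, so these counts do not measure their effect on the Hsp90aa1 level. A processed pseudogene, Gm19178, lies within Chordc1 on the other strand and held 1 UMI in each library.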

How the data were processed

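Single-cell counts deposited by the authors are whole UMIs for each gene in each barcode. Per the file headers they come from Cell Ranger 6.1.1; per the submitters' processing notes, GRCm38 and Seurat were used, with no step named. The 55450 gene identifiers all occur in GENCODE M21. The 9 genes, the gene lists and the markers were chosen with earlier results of these data known.

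Barcodes under 200 genes (18 DMSO, 10 inhibitor) or over 20% mitochondrial UMIs (443 and 282) were left out. Scrublet (scanpy 1.11.5; expected rate 6%) failed to place a threshold in the DMSO library (0.659), so, after this was seen, the inhibitor value (0.214) served for each, removing 253 and 440 cells. The libraries were clustered jointly, with no batch integration, on 2000 variable genes, listed genes and markers left out (30 components, 15 neighbours, Leiden resolution 1, seed 0), giving 33 clusters. Naming needed at least 3 markers and a mean score of 1.5; 30 clusters were named. A rule that left a cluster unnamed where an unrelated class scored within 1 was added after the clusters had been seen and applied to 3 clusters (650 DMSO and 432 inhibitor cells). Clusters led by cell division genes kept their class.

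CPM were computed from the UMIs of all cells of a class in a library; ratios have exact 95% conditional binomial intervals, levels exact Poisson intervals and shares Clopper-Pearson intervals, all for counting error only. With 1 library per group there was no test. The rule for named genes took all 9, Hsp90b1, Trap1, Hsf1, Hspa1a and Hspa1b, up to 4 per list and direction in the 3 largest classes by ratio, and the 5 genes most like each HSP90 gene. The ratio and the 1.5-fold rule were also run on simulated Poisson counts with set folds. Those counts held no variation between cells, clusters or libraries, so the run covers counting error alone.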

Additional observations from a re-analysis of the deposited data

Results flagged for a closer look

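Hsp90aa1 had a ratio of 0.770 in T cell-like cells and 4.22 in smooth muscle-like cells, so classes lay on opposite sides of 1 with intervals that leave out 1; with doublets kept the T cell-like ratio was 1.08, so that opposition depends on the doublet filter. Cdc37 did the same at a smaller scale, with 0.911 in smooth muscle-like and 1.29 in lymphatic endothelial-like cells. The Hsp90aa1 share of cytosolic HSP90 UMIs was higher in the inhibitor library by 14.2 points in smooth muscle-like, 7.72 in adipocyte-like, 3.50 in endothelial-like and 2.73 in fibroblast-like cells. The same difference, inhibitor minus DMSO, was -28.6 points in neutrophil-like, -9.27 in T cell-like, -2.90 in dendritic-like, -2.59 in Schwann-like and -2.30 in macrophage-like cells. With 1 library per group, these differences between classes were not tested. Gm12346, a pseudogene outside the comparisons that shares 3' sequence with Hsp90aa1, reached 40.8 CPM in smooth muscle-like cells of the inhibitor library, against 6.83 CPM in DMSO.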

How the results depend on the processing

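Under 14 alternative settings (2 Leiden resolutions, doublets kept, 10% mitochondrial UMIs, 1000 genes per cell, listed genes kept in clustering, another naming rule, another CPM total, cells weighted alike, thinning to 2000 UMIs, clusters weighted alike, 10% of the library profile or the smooth muscle RNA taken off, shared barcodes left out), 8 of 9 genes stayed higher in smooth muscle-like cells, with Hsp90aa1 ratios from 3.79 to 4.47. Of the 53 higher pairs, 0 to 6 fell below the limit and 0 to 7 others passed it in a setting; the cause was not tested. In 5 of the settings 8 or 9 classes reached 50 cells in each library, so fewer pairs were compared there. The other naming rule, the smooth muscle RNA and the shared barcodes were chosen as settings after seeing the data. At 2-fold, 20 pairs and 1 further HSP90 gene of the smooth muscle-like class were higher, because the limit is stricter. The share of all genes at 2-fold was not computed. A pair turned lower under 2 settings, Hsp90aa1 in T cell-like cells at 0.619 with 10% of the profile taken off and Chordc1 there at 0.626 after thinning, 1 pair each. The smooth muscle-like Hsp90aa1 share in DMSO was 29.5% with 1000 genes per cell, 29.5% with clusters weighted alike and 28.7% with cells weighted alike. In inhibitor it was 42.7% with 10% of the profile taken off, 42.7% after thinning and 42.8% with cells weighted alike. With doublets kept, Hsp90aa1 in T cell-like cells turned from 0.770 to 1.08. After thinning, Stip1 there turned from 0.765 to 1.13. Cdc37, higher in 0 classes otherwise, passed 1.5 in lymphatic endothelial-like (1.76) and adipocyte-like cells (1.51) after thinning and in neutrophil-like cells (1.65) with cells weighted alike. Ratios that moved by over 1.5 times were Hsp90aa1 in neutrophil-like cells (1.74 with doublets kept) and, after thinning, Ahsa1 in endothelial-like (2.98) and T cell-like cells (1.89); with cells weighted alike, Ahsa1, Ahsa2 and Fkbp4 in neutrophil-like cells came to 0.799, 5.19 and 2.98. No paired analysis was possible because each group held 1 library.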
